A study of Mus musculus with 13 samples.

Results

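The subject is a set of 10 genes by which endothelial cells (ECs) are recognized, Pecam1, Cdh5, Plvap, Emcn, Egfl7, Esam, Cldn5, Sox17, Sox18 and Vwf, in bulk RNA-seq of thymic stroma. The 10 were taken by mouse symbol from the 53379 genes of the count table, each symbol matched 1 gene, and all 10 passed the filter on low counts that left 19984 genes to test. The libraries came from CD45- thymic stromal cells of 2-month-old wild-type C57BL/6 mice, a preparation depleted of CD45+ cells and sorted, which holds ECs together with thymic epithelial cells, fibroblasts, pericytes and others. Mice were either untreated, called steady state (4 libraries), or had received a sublethal dose of total body irradiation (SL-TBI) and were studied at day 1, 4 or 7, with 3 libraries at each time, and the study used this acute injury to ask how the stroma changes while the thymus regenerates. The labels say untreated, while the column heads of the 4 steady-state libraries name PBS and a day (1, 4 or 7). The study's methods call the bulk libraries biological replicates, and the sources used here do not say how many mice went into each.

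Endothelial cells line blood vessels and are held together by junctions in which VE-cadherin (Cdh5), PECAM-1 (Pecam1) and ESAM (Esam) bind neighbouring cells, while claudin-5 (Cldn5) seals the tight junction. PLVAP (Plvap) forms the diaphragms of fenestrae and caveolae in permeable capillaries, endomucin (Emcn) is a sialomucin of venous and capillary surfaces, EGFL7 (Egfl7) is a secreted matrix protein made by ECs, and von Willebrand factor (Vwf) is the platelet-binding protein stored in EC granules. SOX17 (Sox17) and SOX18 (Sox18) are related transcription factors, known for arterial and for lymphatic and general vessel development, respectively. In the thymus, blood vessels are also the doorway for incoming T cell progenitors.

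The libraries held between 15721866 and 52056896 assigned reads. The endothelial label was met in all 13: the lowest count of any member in any library was 61 reads (Sox17) and no gene among 26 other pan-endothelial markers was at 0 throughout a condition. Markers of other cells moved between conditions. The summed level of 8 erythroid genes ranged from 21390 to 37000 CPM (counts scaled to library size) at steady state, from 4179 to 18300 at day 1, from 10.4 to 15.2 at day 4 and from 2956 to 8499 at day 7. The sum of 12 thymocyte genes was 255 to 843, 121 to 157, 24.3 to 37.4 and 227 to 5302 CPM in the same order, and that of 6 pericyte and smooth muscle genes 956 to 1778, 1946 to 2818, 1187 to 1337 and 783 to 1033 CPM. No gene of these 3 lists was at 0 in all libraries of a condition, and their part in the members' values was not tested. In bulk RNA, fewer ECs and less RNA per EC cannot be told apart.

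Levels of the 10 genes were first compared with each other at steady state, as CPM per kilobase of exon. Esam was highest at 85.3 ± 9.91 (SD, n = 4), followed by Cldn5 at 68.9 ± 10.6, Plvap at 68.4 ± 15.6, Sox18 at 46.8 ± 8.24 and Pecam1 at 42.5 ± 6.70. Each of these 5 overlapped its neighbour in the order. Egfl7 stood apart from both sides at 17.6 ± 5.61. Cdh5 followed at 9.83 ± 2.34, Emcn at 7.50 ± 0.751, Vwf at 6.32 ± 2.53 and Sox17 at 3.05 ± 1.30, and these 4 again overlapped their neighbours. The exonic lengths ran from 1414 bases for Cldn5 to 16064 for Vwf, and Egfl7 and Sox17 shared 11.2% and 16.8% of their exonic bases with other annotated genes (Gm20532, Mir126a, Mir126b and Agpat2 for Egfl7, the antisense Gm37587 for Sox17), so those counts are less certain.

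None of the 10 genes was called after SL-TBI. Across the genome, the quasi-likelihood test of edgeR, adjusted by the Benjamini-Hochberg method, called 2.35% of genes at day 1, 0.29% at day 4 and 0.005% at day 7 against steady state, and 1.43% at day 4 against day 1, 8.13% at day 7 against day 1 and 3.9% at day 7 against day 4. In each of the 6 comparisons the number of members called was 0 of 10. DESeq2 called 1 member, Cldn5, at day 1 against steady state and again at day 7 against day 1, and 0 members in the other 4 comparisons. Over all genes DESeq2 called 7.01% and 14.7% in the first pair and 3.23%, 5.42%, 4.81% and 9.61% at day 4 and day 7 against steady state, day 4 against day 1 and day 7 against day 4. At an unadjusted edgeR p under 0.05 there was 1 member at day 1 (Cldn5), 1 at day 4 (Esam) and 0 at day 7 against steady state, against a background of 17.2%, 13% and 13.5% of genes. Between days there was 1 at day 4 against day 1 (Cldn5), 1 at day 7 against day 1 (Cldn5) and 2 at day 7 against day 4 (Cdh5 and Esam), where the background was 13.7%, 23.9% and 18.7%. The members' counts were near or below the background in every comparison.

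The sizes were small for most members. The median log2 fold change of the 10 genes against steady state was 0.18 at day 1, 0.29 at day 4 and 0.02 at day 7, beside -0.10, -0.13 and 0.00 for all genes tested. Taken without sign, the median was 0.24, 0.37 and 0.23, beside 0.42, 0.40 and 0.30 over all genes. The 95% intervals were narrow enough to lie within a 2-fold change in either direction for Pecam1, Cdh5, Emcn and Esam at all 3 days, and for Vwf at day 1 and Cldn5 at day 7. For Plvap, Egfl7, Sox17 and Sox18 the interval reached past 2-fold on at least 1 side at every day. Changes of that size were therefore not excluded in these genes.

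**Figure D1:**
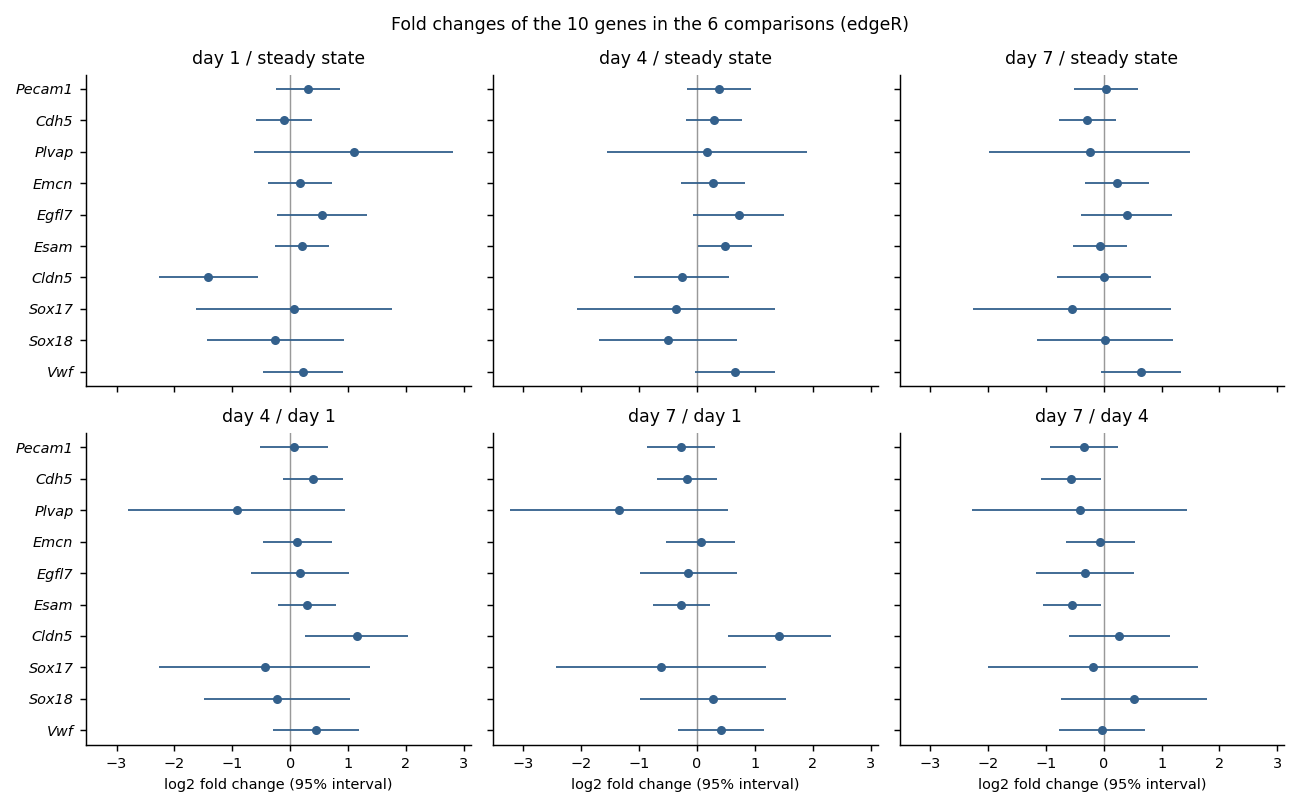
Log2 fold changes of the 10 genes (points) with 95% intervals (lines) from edgeR in the 6 comparisons, the first-named condition over the second. Cldn5 lies at -1.41 for day 1 over steady state and at 1.42 for day 7 over day 1, while the intervals of Plvap, Sox17 and Sox18 are the widest.

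The junction genes Pecam1, Cdh5 and Esam gave no call. Pecam1 (chr11:106654217-106750628, minus strand, GRCm38) was at 308, 237, 292 and 222 CPM in the 4 steady-state libraries, at 432, 279 and 274 at day 1, at 320, 324 and 391 at day 4 and at 199, 374 and 243 at day 7. Its day 4 libraries all lay above those at steady state, while days 1 and 7 overlapped them. The fold change at day 4 was 1.30 (95% interval 0.891 to 1.91, adjusted p = 0.504 by edgeR).

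Cdh5 (chr8:104101625-104144511, plus strand) was at 50.9, 31.7, 48.6 and 34.0 CPM at steady state, 39.0, 40.7 and 35.6 at day 1, 42.1, 52.2 and 57.3 at day 4 and 28.3, 40.6 and 33.1 at day 7. All conditions overlapped steady state, and the day 4 libraries lay above all those of days 1 and 7. The log2 fold change was 0.40 ± 0.240 (SE) at day 4 over day 1 and -0.57 ± 0.240 at day 7 over day 4, with edgeR adjusted p-values of 0.506 and 0.217.

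Esam (chr9:37528078-37538319, plus strand) was likewise highest on average at day 4, with 206, 252, 247 and 274 CPM at steady state, 376, 229 and 240 at day 1, 313, 306 and 410 at day 4 and 237, 247 and 219 at day 7. Its day 4 libraries lay above all of steady state and day 7, and overlapped day 1. Day 4 stood 1.40-fold over steady state (95% interval 1.02 to 1.94, adjusted p = 0.368) and day 7 at 0.683 of day 4 (0.483 to 0.967, adjusted p = 0.220, both by edgeR). Libraries did not overlap in these ways for 14.7% of all genes at day 4 against steady state, for 26.3% at day 4 against day 1 and for 26.2% at day 7 against day 4, so 2, 1 and 2 of 10 members were near or below the background.

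**Figure D2:**
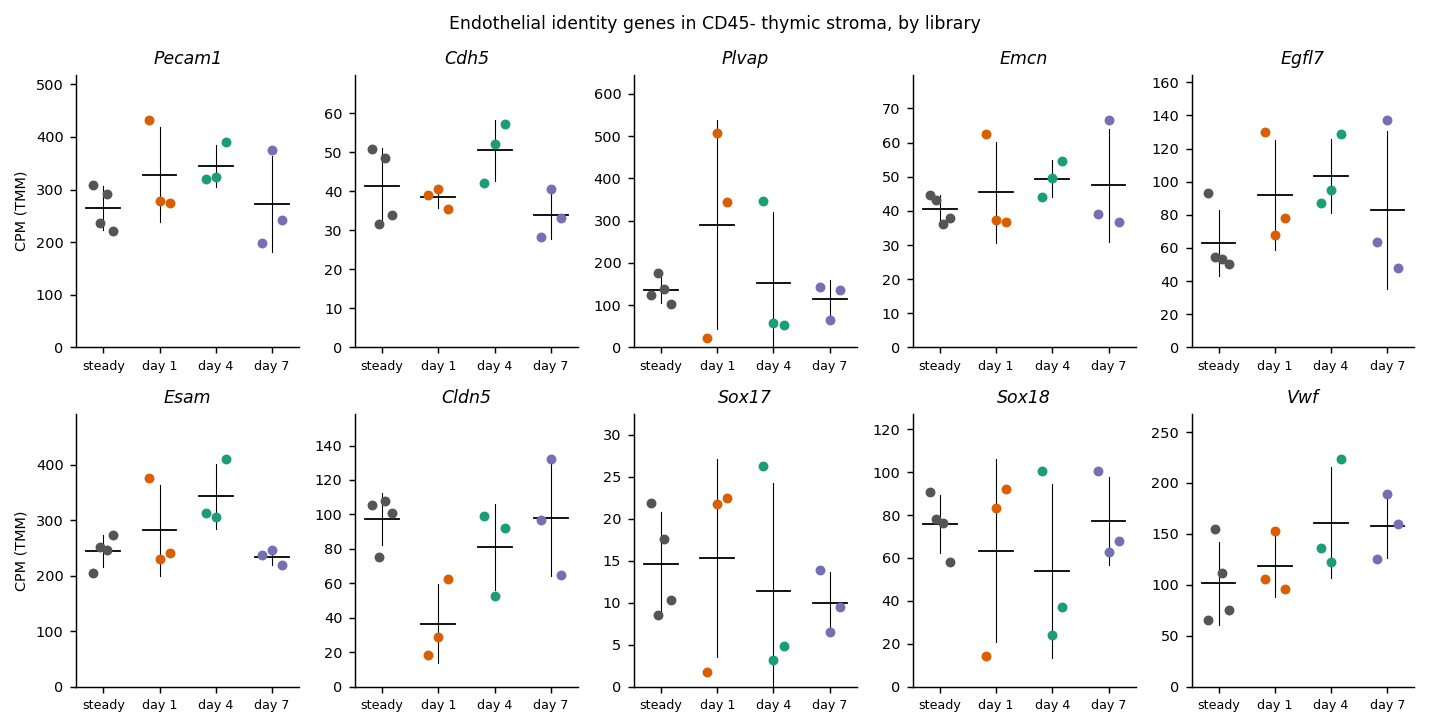
CPM of each of the 10 genes in each of the 13 libraries (points), with the mean (horizontal line) and SD (vertical line) of each condition; the vertical axes are linear, start at 0, where SD lines are cut, and differ between panels. Cldn5 at day 1 lies below all 4 steady-state libraries, and Plvap, Sox17 and Sox18 each have 1 day 1 library and 2 day 4 libraries far below the other libraries of the same condition.

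The surface and secreted genes Emcn, Egfl7 and Vwf gave no call. Emcn (chr3:137341067-137432185, plus strand) was at 44.8, 43.2, 36.3 and 38.0 CPM at steady state, 62.5, 37.2 and 36.7 at day 1, 44.0, 49.7 and 54.7 at day 4 and 39.0, 66.6 and 36.7 at day 7. It varied least of the 10 genes, with 1.84-fold between its lowest and highest library, and every condition overlapped the others. Its fold changes against steady state lay between 1.12 and 1.22.

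Egfl7 (chr2:26580014-26593120, plus strand) was at 92.9, 54.6, 53.6 and 50.5 CPM at steady state, 130, 67.9 and 78.0 at day 1, 87.1, 94.7 and 129 at day 4 and 63.8, 137 and 48.0 at day 7. One steady-state library, PBS-d1-2 by its column head, was well above the other 3 and overlapped all later days. The fold change at day 4 was 1.65 (95% interval 0.958 to 2.83, edgeR adjusted p = 0.416).

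Vwf (chr6:125546774-125686679, plus strand) was at 65.2, 155, 112 and 74.9 CPM at steady state, 106, 153 and 96.3 at day 1, 136, 123 and 223 at day 4 and 126, 189 and 159 at day 7. The means were higher at days 4 and 7, but the steady-state libraries spread from 65.2 to 155 CPM and overlapped every day. The fold change was 1.58 at day 4 (0.981 to 2.55) and 1.56 at day 7 (0.964 to 2.51), with edgeR adjusted p-values of 0.397 and 0.426. Vwf is also made by megakaryocytes and carried by platelets. The summed level of 8 platelet and megakaryocyte genes was 9.49 to 16.7 CPM at steady state, 19.5 to 28.3 at day 1, 10.5 to 13.9 at day 4 and 8.63 to 13.2 at day 7, with none of the 8 at 0 throughout a condition. The part of platelets in the Vwf values was not tested.

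Plvap, Sox17 and Sox18 varied most between libraries of the same condition, with pooled SDs on the log2 CPM scale of 1.42, 1.33 and 0.89, followed by Cldn5 at 0.55, Egfl7 at 0.52 and Vwf at 0.45. Over all 13 libraries the highest exceeded the lowest 23.6-fold for Plvap, 15.2-fold for Sox17, 7.12-fold for Cldn5 and 6.90-fold for Sox18, against 1.84-fold to 3.42-fold for the other 6 genes. Those first 4 were also the members with the highest share of G and C in their coding sequence, at 67.8% for Sox17, 66.4% for Sox18, 64.1% for Cldn5 and 62.0% for Plvap. The rest ran from 58.5% for Egfl7 down to 50.4% for Pecam1 and 44.8% for Emcn. Among 16170 tested genes with an annotated coding sequence, the 4 genes stood between the 93.6 and 98.9 percentile for GC content.

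The start of the coding sequence is shown for the pair of members poorest in GC, which were also among the least variable. The 120 bases from the start codon are given 5′ to 3′ on the coding strand, with every G and C in capitals. They come from the GENCODE M21 transcripts on GRCm38: Pecam1 across 3 exons within chr11:106699827-106715052 and Emcn across 2 exons within chr3:137341240-137372774. G and C made up 54.2% of the stretch of Pecam1 and 47.5% of that of Emcn.
Pecam1: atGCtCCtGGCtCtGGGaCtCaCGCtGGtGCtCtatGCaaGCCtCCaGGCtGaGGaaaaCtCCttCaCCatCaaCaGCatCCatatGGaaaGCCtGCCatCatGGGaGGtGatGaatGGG
Emcn: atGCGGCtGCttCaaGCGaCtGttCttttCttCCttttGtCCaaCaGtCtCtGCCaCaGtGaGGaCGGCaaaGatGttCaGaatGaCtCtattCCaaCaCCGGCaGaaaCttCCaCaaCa

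Libraries differed in the level of GC-rich genes as a whole, and the cause was not tested. For the fifth of genes with the highest coding GC content (58.3% and above), the median log2 deviation from each gene's mean over the libraries was -0.66 in day 1 replicate 1, -0.24 in day 4 replicate 2, -0.23 in day 4 replicate 3 and -0.12 in day 7 replicate 2. It lay between 0.06 and 0.25 in the other 9 libraries. Day 1 replicate 1 held the lowest value of 4 members, which were Plvap, Cldn5, Sox17 and Sox18, and the highest value of Pecam1, and it was the library with the lowest GC-rich median.

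**Figure D3:**
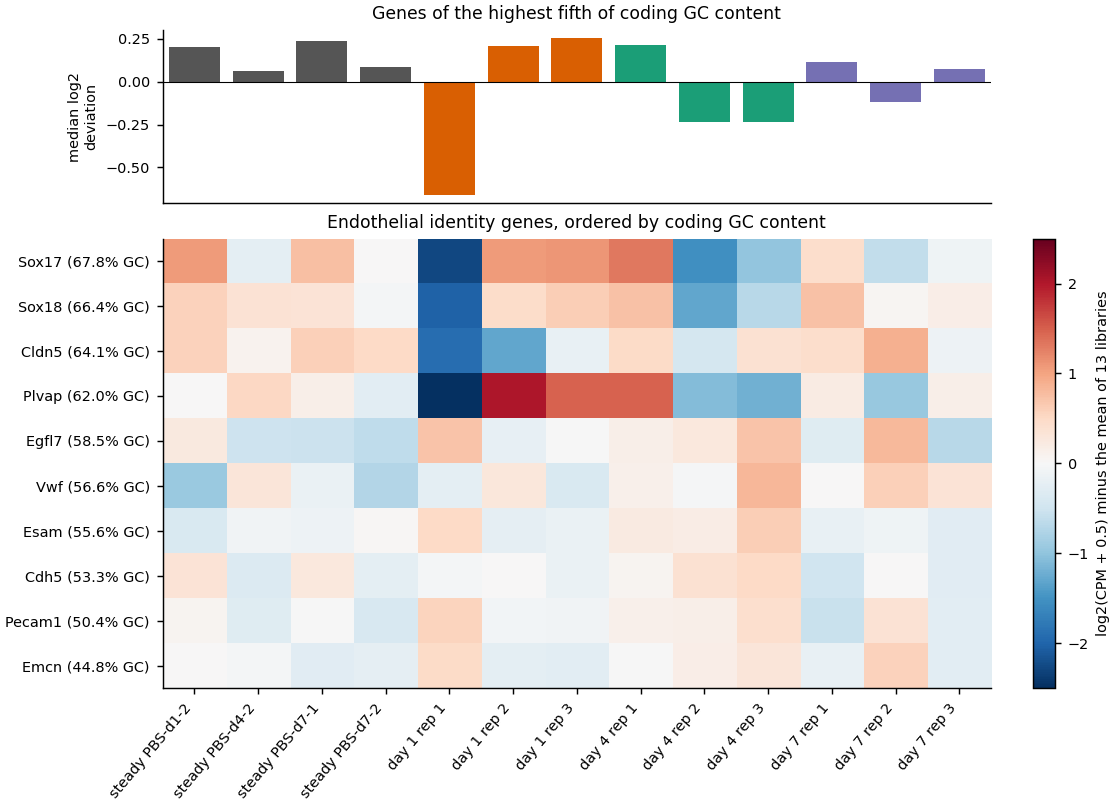
Upper panel, the median log2 deviation of the fifth of genes with the highest coding GC content in each of the 13 libraries (bars, coloured by condition); lower panel, log2(CPM + 0.5) of the 10 genes minus the gene's mean over the 13 libraries, with genes ordered by coding GC content and the colour scale ending at 2.5 in either direction. Sox17, Sox18 and Plvap are blue in day 1 replicate 1 and in day 4 replicates 2 and 3, where the bars are lowest at -0.66, -0.24 and -0.23.

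Plvap (chr8:71497765-71511752, minus strand) was at 125, 177, 138 and 104 CPM at steady state, 21.5, 508 and 344 at day 1, 348, 58.0 and 54.1 at day 4 and 144, 64.2 and 137 at day 7. At day 1, replicates 2 and 3 lay above and replicate 1 below every steady-state library, and at day 4 replicate 1 lay above and replicates 2 and 3 below. The fold change at day 1 was 2.14 with an interval from 0.650 to 7.06 (edgeR adjusted p = 0.510). This log2 value of 1.10 was 0.43 without day 1 replicate 2, 1.65 without day 1 replicate 1 and -0.017 with the tag family of the column heads (described for Cldn5) as a covariate.

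Sox17 (chr1:4490931-4497354, minus strand) was at 21.8, 8.58, 17.6 and 10.3 CPM at steady state, 1.73, 21.7 and 22.5 at day 1, 26.3, 3.18 and 4.91 at day 4 and 13.95, 6.47 and 9.46 at day 7. Sox18 (chr2:181669836-181671640, minus strand) was at 90.6, 78.0, 76.4 and 58.2 CPM at steady state, 14.6, 83.4 and 92.3 at day 1, 100.3, 24.2 and 37.3 at day 4 and 101, 62.6 and 67.9 at day 7. Both SOX genes were low in the same 3 irradiated libraries as Plvap and overlapped steady state at every day. Their fold changes against steady state ranged from 0.683 to 1.05 for Sox17 and from 0.710 to 1.02 for Sox18, and the edgeR intervals reached from 0.208 to 3.39 and from 0.311 to 2.30.

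Each library's trend against coding GC content was removed in a further fit, chosen after seeing the data. The pooled SD within conditions on the log2 CPM scale then went from 0.89 to 0.32 for Sox18, from 1.33 to 0.65 for Sox17 and from 1.42 to 1.06 for Plvap, and from 0.55 to 0.51 for Cldn5. It moved by at most 0.08 for the other 6 genes, and upward for Egfl7, Esam and Vwf. The result depended on the GC measure. With the trend against GC content of the longest transcript removed instead, the SD was 1.28 for Sox17, 0.50 for Sox18, 1.04 for Plvap and 0.46 for Cldn5. The transcript of Sox17 held 52.6% G and C, at the 67.0 percentile. With the coding GC trend removed, the edgeR log2 fold changes against steady state were -0.18 ± 0.248 (SE) for Sox18 and 0.03 ± 0.432 for Sox17 at day 1, and -0.08 ± 0.247 and -0.06 ± 0.433 at day 4. Plvap still spread from 38.8 to 415 CPM over the day 1 libraries and from 69.0 to 285 CPM over those of day 4.

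**Figure D4:**
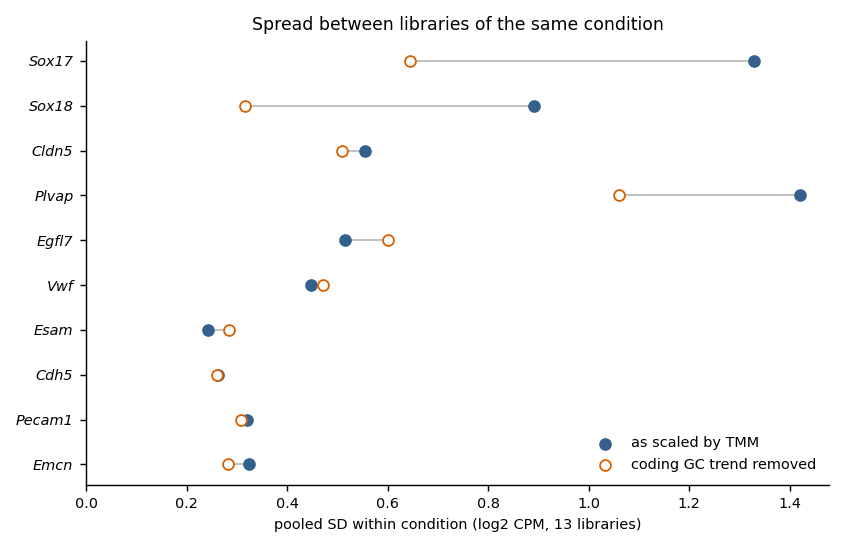
Pooled SD within the 4 conditions, on the log2 CPM scale, of each of the 10 genes as scaled by TMM (filled) and after removal of each library's coding GC trend (open), with genes ordered by coding GC content from the top. The SD of Sox18 goes from 0.89 to 0.32 and that of Sox17 from 1.33 to 0.65, while Plvap stays at 1.06.

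Cldn5 (chr16:18776847-18778260, plus strand, 1 exon) was the member nearest to a call. It was at 106, 75.3, 108 and 101 CPM at steady state, 18.5, 28.7 and 62.4 at day 1, 98.9, 52.4 and 92.0 at day 4 and 96.6, 132 and 65.1 at day 7. All 3 day 1 libraries lay below all steady-state and all day 7 libraries, and day 4 overlapped both. Libraries separated in this way for 15.8% of all genes at day 1 against steady state and for 27.5% at day 7 against day 1. At day 7 against steady state no member separated, against 7.49% of genes.

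The log2 fold change of Cldn5 was -1.41 ± 0.394 (SE) at day 1 over steady state, a level 0.376 times that at steady state (95% interval 0.208 to 0.678), with an edgeR adjusted p of 0.0867. Day 7 over day 1 gave 1.42 ± 0.412 (adjusted p = 0.0521), and day 4 over day 1 gave 1.15 ± 0.410 (adjusted p = 0.228). With DESeq2 the first 2 values were -1.37 and 1.39, with adjusted p-values of 0.0140 and 0.0125. Without day 1 replicate 1, which had the lowest level, the edgeR value at day 1 was -1.09 (adjusted p = 0.280), and without day 1 replicate 3, which had the highest, it was -2.04 (adjusted p = 0.0138). Over all 16 alternatives the adjusted p at day 1 against steady state ran from 0.0138 to 0.280, and the log2 fold change was negative in each. At day 7 over day 1 the adjusted p ran from 0.0125 to 0.345 and the log2 fold change from 0.83 to 2.05. The highest p came with 3 libraries left out, and the value was 1.10 (adjusted p = 0.138) without day 1 replicate 1 and 1.55 (adjusted p = 0.163) with a replicate block.

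Cldn5 was lower at day 1 within each of the tag families that could be compared. The column heads end in tags, which were grouped here into families by whether they start with k3, with kk or with neither. The rest of each tag was not used, and what the tags mean is not given in the sources used here. Among libraries of neither family, Cldn5 was at 106 and 108 CPM at steady state and at 28.7 and 62.4 at day 1. Among those of the kk family it was at 101 and at 18.5, with 1 library on each side. The full tags of these kk libraries differed. No day 1 library was of the k3 family. With the tag family as a covariate the log2 fold change was -1.57 (edgeR adjusted p = 0.0348) at day 1 over steady state and 1.76 (adjusted p = 0.0451) at day 7 over day 1. Days 1 and 7 shared only the kk family, with 1 library on each side. The value for day 7 over day 1 therefore leans on that pair and on family differences taken from other conditions. With the coding GC trend removed the log2 fold changes in these 2 comparisons were -1.16 (edgeR adjusted p = 0.126) and 1.44 (adjusted p = 0.0356). The day 1 libraries, at 41.7, 21.7 and 46.0 CPM, still lay below the steady-state libraries at 68.2 to 89.9.

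The members were next set against 26 other pan-endothelial genes of the same library, as the log2(CPM + 0.5) of the member minus the mean of the 26. The mean of the 26 was at 6.08 ± 0.317 (SD, n = 4) at steady state and 5.96 ± 0.134, 6.09 ± 0.220 and 5.95 ± 0.160 at days 1, 4 and 7 (n = 3 each). On this scale Cldn5 was at -0.93 ± 0.745 at day 1, compared with 0.52 ± 0.261 at steady state, and then at 0.21 ± 0.278 at day 4 and 0.61 ± 0.368 at day 7. All 3 day 1 libraries were below 0 and all steady-state and day 7 libraries above it. The side of 0 depended on the list. Against the 25 genes with a mean of at least 5 CPM, the lowest Cldn5 value was 0.026 at steady state and -0.032 at day 7. The highest at day 1 was -0.35 on that list. Pecam1 stayed between 1.96 and 2.36 and Cdh5 between -0.86 and -0.43 as means of the 4 conditions, and Vwf was at 0.51 ± 0.763, 0.90 ± 0.392, 1.19 ± 0.387 and 1.34 ± 0.214. These are descriptions without a test.

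**Figure D5:**
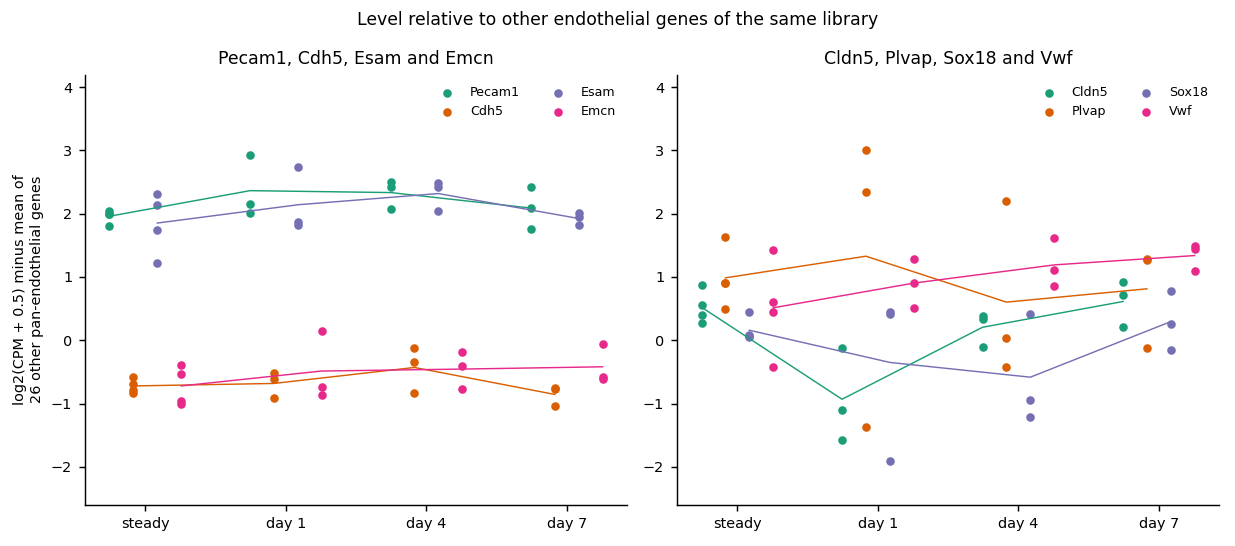
Log2(CPM + 0.5) of 8 of the genes minus the mean of 26 other pan-endothelial genes in the same library (points), by condition, with lines joining the condition means. Cldn5 lies below 0 in all 3 day 1 libraries and above 0 in all steady-state and day 7 libraries, and Pecam1 and Esam lie between 1.22 and 2.93 throughout.

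Few other endothelial genes were called by edgeR. Of the 26 other pan-endothelial genes, edgeR called 0 in 5 of the 6 comparisons, and 1, Eng, the endothelial TGF-beta co-receptor, fell at day 7 relative to day 1 (log2 fold change -0.70 ± 0.196 SE, adjusted p = 0.0450). At day 1 against steady state 7 of the 26 had an unadjusted p under 0.05 and DESeq2 called 4 of the 26, Kdr, Eng, Ecscr and Mmrn2, beside 17.2% and 7.01% of all genes. At day 4 against steady state these numbers were 4 and 1, beside 13% and 3.23% of all genes, and at day 7 they were 1 and 0, beside 13.5% and 5.42%. At day 7 over day 1 they were 7 and 5, beside 23.9% and 14.7% of all genes. At day 4 over day 1 they were 3 and 1, beside 13.7% and 4.81%, and at day 7 over day 4 they were 6 and 3, beside 18.7% and 9.61%. Kdr, the main VEGF receptor of ECs, was at 334 ± 123 CPM (SD, n = 4) at steady state and 148 ± 61.2 at day 1 (n = 3). Eng, Ecscr and Mmrn2 were higher at day 1. Eng went from 174.7 ± 26.4 to 291.5 ± 17.4 CPM, Ecscr from 43.5 ± 11.3 to 92.4 ± 35.2 and Mmrn2 from 104 ± 23.3 to 206 ± 48.8. Of the 26 genes, 13 had a positive log2 fold change at day 1 over steady state.

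Of 8 capillary genes, a list that also holds Kdr, edgeR called 0 in each comparison, with 2, 0 and 0 at an unadjusted p under 0.05 at days 1, 4 and 7 against steady state and 1, 0 and 0 called by DESeq2. The shares of all genes at these days were 17.2%, 13% and 13.5% by unadjusted p and 7.01%, 3.23% and 5.42% by DESeq2. The median log2 fold change of the 8 capillary genes was -0.61 at day 1 over steady state, with 1 of 8 positive, against -0.10 for all genes. Of 9 arterial genes, 1 was called by edgeR, Jag1, a Notch ligand, which fell at day 7 relative to day 1 (-1.17 ± 0.324, adjusted p = 0.0442). The libraries also held thymic epithelial cells and fibroblasts, and which cells gave the Jag1 values was not tested. In the other 5 comparisons edgeR called 0 of 9, with 0 to 5 at an unadjusted p under 0.05 and 0 or 1 called by DESeq2. The 5 were at day 1 over steady state, beside 17.2% of all genes. At day 7 over day 1, 4 of 9 had an unadjusted p under 0.05 and DESeq2 called 3, beside 23.9% and 14.7% of all genes.

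Of 8 venous genes, 2 rose at day 1 over steady state: Selp, the P-selectin that captures leukocytes and progenitors, by 2.04 ± 0.393 (SE) on the log2 scale, and Ackr1, a chemokine-binding receptor of venules, by 2.07 ± 0.431, with edgeR adjusted p-values of 0.0136 and 0.0222. Selp averaged 12.4 ± 7.71 CPM (SD, n = 4) at steady state and 51.1 ± 14.6 at day 1 (n = 3), then 19.3 ± 2.97 and 13.1 ± 3.95. Selp is also made by megakaryocytes and carried by platelets, and among the platelet genes Ppbp rose at day 1 over steady state (2.61 ± 0.457, adjusted p = 0.00745) and fell at day 7 relative to day 1 (-4.27 ± 0.551, adjusted p = 0.00108), with average levels of 8.53 CPM at day 1, 0.437 CPM at day 7 and 1.39 CPM at steady state. Its part in the Selp values was not tested. Selp and Ackr1 both fell at day 7 relative to day 1, as did the E-selectin gene Sele (-1.53 ± 0.432, adjusted p = 0.0467), so 3 of 8 were called lower there. At day 1 over steady state 4 of the 8 had an unadjusted p under 0.05 and DESeq2 called 2. At day 7 over day 1 these numbers were 6 and 4. Over all genes edgeR called 2.35% and 8.13% in these comparisons. An unadjusted p under 0.05 held for 17.2% and 23.9% of all genes, and DESeq2 called 7.01% and 14.7%. Vwf, which venous ECs express strongly, stood at 1.17-fold at day 1 with an interval of 0.722 to 1.89. Among 6 lymphatic genes, Pdpn, which fibroblasts and epithelial cells also express, rose at day 1 (1.83 ± 0.405, adjusted p = 0.0312) and fell by day 7 relative to day 1 (-1.67 ± 0.443, adjusted p = 0.0371), while Prox1 and Lyve1, which define lymphatic ECs, averaged 4.57 and 1.16 CPM at steady state.

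The 5 genes whose pattern over the 13 libraries was most like the mean of the 10 standardized members, among 11449 genes with a mean of 5 CPM or more, were Usp20 (Pearson's r = 0.853), Scarf1 (0.818), Slc12a7 (0.809), St6gal1 (0.791) and Kit (0.775). Without the 2 libraries farthest from the median of that mean, day 4 replicates 1 and 3, the values were 0.658, 0.741, 0.809, 0.741 and 0.763. The 13 points may share effects of library preparation, depth or base composition, which were not tested. The member mean itself was highest in those 2 libraries, and day 4 replicate 1 was above the gene's own median in 10 of 10 members.

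Promoter windows from 250 bases before to 50 after the gene start were taken from RefSeq (GRCm38.p6) for 3 members, Egfl7, Emcn and Cldn5. They were searched on both strands for the ETS core GGAA, the SOX core ACAAT, the GATA core AGATAA and the KLF core CACCC, and matches of different cores may overlap. Of 32851 windows of this length, 96.0%, 31.0%, 11.2% and 57.5% held the 4 cores. Emcn had 6 ETS matches and 1 SOX match, the 3 windows of Egfl7 had 5, 4 and 1 ETS matches and 0, 2 and 0 KLF matches, and Cldn5 had 0 ETS, 0 SOX and 0 GATA matches and 2 KLF matches. A match is only a run of letters.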

How the data were processed

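Bulk RNA of CD45- thymic stroma was sequenced in 13 libraries. The authors trimmed reads with Trimmomatic 0.38, aligned them with STAR 2.7.0e to GRCm38 and counted them per gene with featureCounts 1.6.3, per the labels and the study's methods, and deposited raw counts, 15721866 to 52056896 per library. Irradiated columns were matched to samples by day and replicate. Steady-state columns carry other numbers than the labels, were matched to the condition only and are named by their column heads.

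Counts were tested with edgeR 4.0.16 (R 4.3.3): TMM scaling, the filterByExpr filter (minimum count 10, minimum total 15), a quasi-likelihood fit of condition over all 13 libraries and Benjamini-Hochberg adjustment over 19984 genes, with calls at 0.05. Intervals are 95% intervals from the fit's standard errors. The fit was tested on simulated data with known changes. Log levels used a pseudocount of 0.5. DESeq2 1.42.0, RLE scaling, other count filters, the tag family as a covariate, pairs of conditions fitted alone, a replicate block and leaving out each library were alternatives. Removal of GC trends (lowess span 0.3) and leaving out 3 libraries were added after seeing the data.

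GC content and coding starts came from GENCODE M21, while the counts used M12, and promoters from RefSeq. Coding starts of other members are not reported here. Tables and figures were made with Python 3.11.15, NumPy 2.4.6, pandas 2.3.3, SciPy 1.17.1 and matplotlib 3.10.9. The text names all 10 members, each gene called in another endothelial list, and the 5 genes most like the members' mean. The levels of Kdr, Eng, Ecscr and Mmrn2 were added after their values were seen. The members and lists were chosen with earlier results of these data known.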

Additional observations from a re-analysis of the deposited data

Results flagged for a closer look

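Egfl7 at steady state was picked out by Dixon's test for a single distant sample, which was run on the 4 steady-state libraries of each of the 10 genes. The library with the column head PBS-d1-2 was at 92.9 CPM and the other 3 at 54.6, 53.6 and 50.5 CPM, so the gap divided by the range was 0.904, above the 95% critical value for 4 samples. The ratio of the other 9 genes stayed below that critical value, the nearest being Cldn5 at 0.798. Chance alone picks out about 1 in 20 groups.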

How the results depend on the processing

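The number of members called was 0 in all 6 comparisons and became 1, always Cldn5, in some alternatives. This was so at day 1 over steady state with DESeq2, with no count filter and with the tag family, and at day 7 over day 1 with those 3, with RLE scaling and with either GC trend removed. With single libraries left out it ran from 0 to 1 at day 1 over steady state, day 4 over day 1 and day 7 over day 1, in each case 1 without day 1 replicate 3, and was 0 in the other 3. Of 960 member fold changes recomputed, 863 kept their direction and side of the threshold, 12 passed it, all Cldn5, and 85 turned direction, in 32 results with a log2 fold change of at most 1.34.

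The number of all genes called depended on the setting. It was 469, 58 and 1 at days 1, 4 and 7 over steady state, 285 at day 4 over day 1, 1625 at day 7 over day 1 and 779 at day 7 over day 4. In that order DESeq2 called 1399, 645, 1081, 960, 2940 and 1919. With no filter the count was 250 at day 4 and 627 at day 7 over steady state and 1265 at day 7 over day 4. With 10 counts in every library it was 20 at day 4 and 0 at day 7 over steady state, 880 at day 7 over day 1 and 355 at day 7 over day 4. With the tag family it was 1066, 33 and 0 over steady state and 163 at day 4 over day 1. With only the 2 conditions fitted it was 228, 146 and 0 over steady state and 394 at day 7 over day 4. With the transcript GC trend removed it was 91 at day 4 over steady state. With 3 libraries left out (day 1 replicate 1, day 4 replicate 2 and day 7 replicate 2) it was 192, 21, 0, 72, 112 and 14. With single libraries left out it ran from 252 (without day 1 replicate 1) to 797 (without PBS-d4-2) at day 1, from 19 (without day 4 replicate 2) to 97 (without PBS-d4-2) at day 4 and from 0 (without PBS-d1-2, PBS-d7-1, PBS-d7-2 or day 7 replicate 2 or 3) to 622 (without day 7 replicate 1) at day 7 over steady state. Between days it ran from 87 (without day 4 replicate 3) to 287 at day 4 over day 1, from 472 (without day 1 replicate 1) to 1953 at day 7 over day 1 and from 15 (without day 4 replicate 2) to 1507 (without day 7 replicate 1) at day 7 over day 4.

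With the replicate number of the irradiated libraries as a replicate block, 56 genes were called at day 4 over day 1, 640 at day 7 over day 1 and 0 at day 7 over day 4, with 0 members in each. The same-numbered libraries did not deviate together: their correlations were -0.67, -0.37 and -0.39 for day 4 with day 1, -0.18, -0.32 and 0.08 for day 7 with day 1, and 0.19, 0.20 and -0.16 for day 7 with day 4, and not every library correlated best with its own number. Under the block the log2 fold change of Sox17 was 0.059 at day 7 over day 4.

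The following member log2 fold changes turned direction, none of them called; the cause was not tested. With the tag family as a covariate they were Plvap -0.017, Sox17 -0.84 at day 1 over steady state, Plvap -0.42 at day 4 over steady state, Pecam1 -0.0056, Plvap 0.39, Sox17 0.54 at day 7 over steady state, Emcn -0.042, Egfl7 -0.087, Sox17 0.25, Sox18 0.11 at day 4 over day 1, Plvap 0.40, Emcn -0.18, Sox17 1.38 at day 7 over day 1, Plvap 0.80, Sox17 1.13, Vwf 0.024 at day 7 over day 4. With only the 2 conditions fitted they were Pecam1 -0.001, Cldn5 -0.026 at day 7 over steady state. With the 3 libraries left out they were Emcn -0.13, Esam -0.058, Sox18 0.21 at day 1 over steady state, Sox17 0.082 at day 4 over steady state, Pecam1 -0.26, Plvap 0.047, Emcn -0.10, Egfl7 -0.17, Cldn5 -0.27 at day 7 over steady state, Sox18 -0.060 at day 7 over day 1, Cldn5 -0.24 at day 7 over day 4. With the coding GC trend removed they were Cldn5 0.22 at day 4 over steady state, Sox18 0.10 at day 4 over day 1, Emcn -0.013 at day 7 over day 1. With the transcript GC trend removed they were Cldn5 0.057 at day 4 over steady state, Emcn -0.10 at day 7 over day 1. With 10 counts required in every library they were Cldn5 -0.017, Sox18 -0.0061 at day 7 over steady state. With single libraries left out, the direction turned in these cases. At day 1 over steady state the values ran from -0.21 to 0.061 for Cdh5, from -0.13 to 0.30 for Emcn, from -0.055 to 0.33 for Esam, from -0.32 to 0.61 for Sox17, from -0.63 to 0.22 for Sox18, from -0.0045 to 0.50 for Vwf. At day 4 over steady state the values ran from -1.16 to 0.58 for Plvap, from -1.72 to 0.088 for Sox17. At day 7 over steady state the values ran from -0.21 to 0.22 for Pecam1, from -0.43 to 0.088 for Plvap, from -0.053 to 0.38 for Emcn, from -0.11 to 0.68 for Egfl7, from -0.22 to 0.24 for Cldn5, from -0.21 to 0.21 for Sox18. At day 4 over day 1 the values ran from -0.042 to 0.32 for Pecam1, from -0.011 to 0.42 for Emcn, from -0.014 to 0.50 for Egfl7, from -1.86 to 0.014 for Sox17, from -0.99 to 0.14 for Sox18. At day 7 over day 1 the values ran from -0.29 to 0.36 for Emcn, from -0.74 to 0.18 for Egfl7, from -0.19 to 0.65 for Sox18. At day 7 over day 4 the values ran from -0.82 to 0.95 for Plvap, from -0.45 to 0.062 for Emcn, from -0.067 to 0.39 for Cldn5, from -0.64 to 1.21 for Sox17, from -0.25 to 0.28 for Vwf. The lowest count of any member in any library was 61 reads, and conditions held 3 or 4 libraries.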

Other observations

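Markers of other stromal cells gave few edgeR calls, as did all genes, with 2.35%, 0.29% and 0.005% at days 1, 4 and 7 against steady state. Between days edgeR called 1.43% of all genes at day 4 over day 1, 8.13% at day 7 over day 1 and 3.9% at day 7 over day 4. An unadjusted p under 0.05 held for 17.2%, 13% and 13.5% of all genes at days 1, 4 and 7 against steady state, and DESeq2 called 7.01%, 3.23% and 5.42%. Of 7 thymic epithelial genes, edgeR called 0 against steady state at any day, with 1, 3 and 2 at an unadjusted p under 0.05 and 0, 2 and 1 called by DESeq2 at days 1, 4 and 7. Krt14, a keratin of medullary epithelium, fell at day 7 relative to day 1 (log2 fold change -1.79 ± 0.358 SE, edgeR adjusted p = 0.0115), and Krt5 fell at day 7 relative to day 4 (-2.61 ± 0.472, adjusted p = 0.0135). Of 6 fibroblast genes 0 were called in any comparison by edgeR or by DESeq2, with 2, 0 and 0 at an unadjusted p under 0.05 at days 1, 4 and 7 against steady state. Of 6 pericyte and smooth muscle genes Pdgfrb, the PDGF receptor of mural cells, rose at day 1 over steady state by 1.68 ± 0.281 on the log2 scale (edgeR adjusted p = 0.00547) and fell at day 7 relative to day 1 (-1.83 ± 0.310, adjusted p = 0.00589).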
